A study of Mus musculus with 6 samples.

Results

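Cytochrome P450 enzymes are heme proteins that insert an oxygen atom into their substrates. The heme iron is held by a single cysteine of the enzyme, and electrons reach it from NADPH through the reductase Por in the endoplasmic reticulum, or through ferredoxin in mitochondria. In the kidney, P450 enzymes of the CYP4 family hydroxylate arachidonic acid, those of the CYP2C and CYP2J subfamilies epoxidise it, and others act on drugs, retinoids, sterols and steroids; much of this activity lies in the proximal tubule, and many of these genes differ between male and female mice. The P450 genes were taken as the rows of the count tables whose symbol is Cyp followed by a family number, a subfamily letter and a gene number, without Cyp27b1 and Cyp24a1, with at least 10 counts in at least 3 of the 6 libraries. The name pattern took 92 of the 24422 genes in the tables, and 44 of these reached the count limit. Symbols of another form, such as Cyp51 and Cyp4a12a, lie outside the pattern and are not described.

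Poly-A RNA from whole kidney of C57BL/6 mice at postnatal day 60, on a diet with 220 ppm iron, was sequenced in 3 control (wild type) libraries and 3 libraries of genotype Tfr1f/f;KspCre, the group named TfR1KO;KspCre. In that group both alleles of the transferrin receptor gene Tfrc (TfR1) carry floxed exons, and the Cre transgene uses the Ksp-cadherin promoter, whose activity lies in the thick ascending limb and the more distal nephron; the proximal tubule, where many P450 enzymes are made, is not its main target. Whether the controls carry floxed alleles without Cre is not given in their labels. The comparison asks which P450 transcripts differ between the 2 genotypes. The TfR1KO;KspCre libraries, so labelled, are termed knockout libraries.

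Total counts were 18036845 to 21001341 in the controls and 11501053 to 19576330 in the knockout libraries, the smallest being knockout 3. Values are normalised read counts (CPM, counts scaled to a common library size with edgeR's TMM factors). The whole-gene count of Tfrc was 138.47, 167.85 and 61.952 CPM in controls 1 to 3 and 214.37, 85.964 and 40.603 CPM in knockouts 1 to 3, with knockout 1 the highest of all libraries. The means were 122.76 ± 54.7 (SD, n = 3) and 113.65 ± 90.1 (SD, n = 3), so in whole kidney it did not separate the labels, and it includes exons outside the deletion. Control 2 stood apart from the other 5 libraries in sex-linked transcripts: it had 52 counts of Xist against 10458 to 23845 in the others, and 518 to 1451 counts of each of the Y-linked genes Ddx3y, Eif2s3y, Kdm5d and Uty against 0 to 4. The sex of the animals is not given in the labels. Knockout 1 lay between the controls and knockouts 2 and 3 for many of the genes below. P450 genes with CPM given in every library are thus also given without control 2. Where their fold change moves by over 1.5 times without knockout 1, that value is added.

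Most members hold a known pattern of residues around the cysteine that binds the heme iron. A search of the longest annotated coding sequences for the 10-residue pattern that begins with phenylalanine and has glycine at residues 4 and 10 and cysteine at residue 8 found 1 match in 42 of the 44 genes, and in 26 of these the cysteine codon was TGC and in 16 TGT. Cyp20a1 and Cyp2s1 had no match to this pattern. The 42 matches had 37 different base sequences. The sequences of the 8 genes that differed between the genotypes in the main test are shown because they are the iron site of the enzymes described below, 5′ to 3′ from GENCODE M1 (mm9), with the cysteine codon in capitals.
Cyp2j5: ttctcaatgggaaaaagagctTGTcttgga
Cyp2c44: ttctccctcgggaagcgatccTGTgttggc
Cyp2d12: ttttcagcaggccgcagatcaTGCctgggg
Cyp2a5: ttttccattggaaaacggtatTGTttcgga
Cyp4f14: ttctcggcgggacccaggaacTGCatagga
Cyp4f16: ttttctgccgggcccaggaacTGCatagga
Cyp4f18: ttctcggctgggcccaggaacTGCatagga
Cyp4v3: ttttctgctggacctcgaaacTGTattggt
The CYP4F subfamily held both a gene that fell, Cyp4f14, and genes that rose, Cyp4f16 and Cyp4f18.

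Per kb of exon, the highest means among the 44 P450 transcripts of control kidney were Cyp2j5, an arachidonic acid epoxygenase of the proximal tubule, at 537.19 CPM per kb ± 223 (SD, n = 3), Cyp4b1 at 405.17 ± 508, Cyp2e1, the ethanol-oxidising P450, at 373.14 ± 508, and Cyp2d26 at 214.00 ± 90.8. Cyp4a10, Cyp4a14, Cyp2a4 and Cyp4a31 followed with means of 132.46 to 183.35 CPM per kb. The SD of Cyp4b1 and Cyp2e1 exceeded their means, with control 2 far above the others, so neither can be ranked against its neighbours. Over controls 1 and 3, Cyp2j5 was still highest with a mean of 413.57 CPM per kb, followed by Cyp2d26 at 266.37 and Cyp4a14 at 246.98, whereas Cyp4b1 was at 113.21 and Cyp2e1 at 80.095. The other members reached down to Cyp4f18 at 0.20768 CPM per kb.

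**Figure D1:**
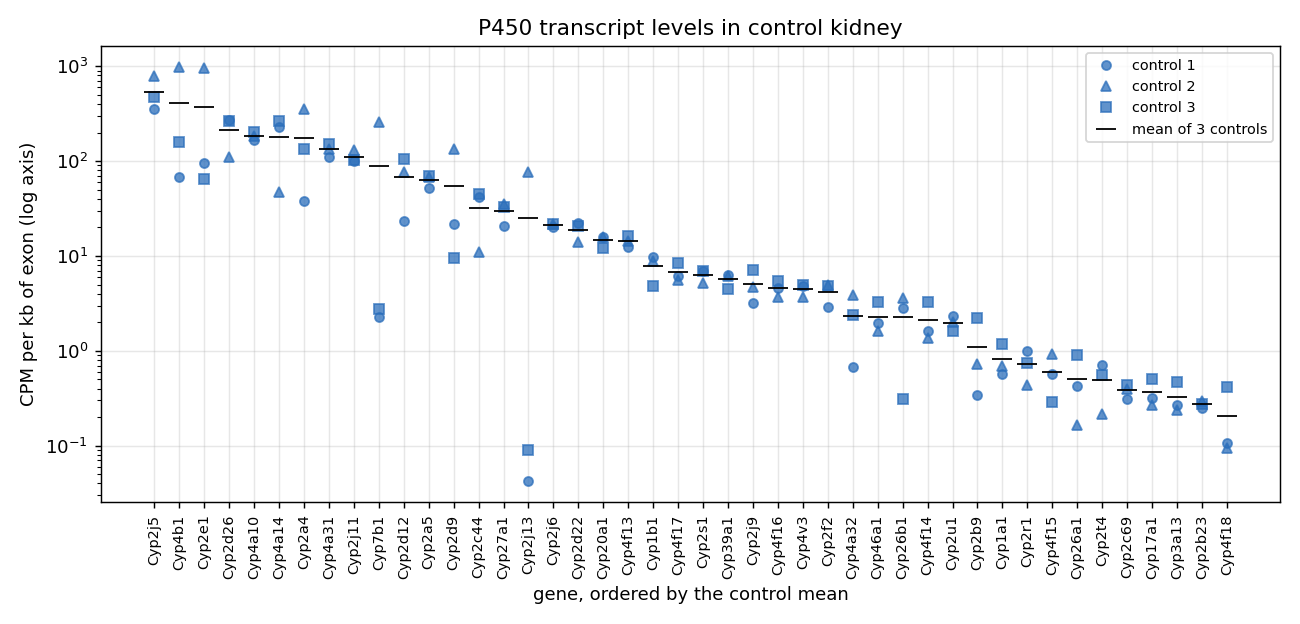
Level of each of the 44 P450 genes in the 3 control libraries, in CPM per kb of exon on a log axis, with points for libraries and a bar for the mean, ordered by the mean. Cyp2j5 lies highest at 537.19 and Cyp4f18 lowest at 0.20768, and control 2 (triangles) lies far above the other controls for Cyp4b1, Cyp2e1, Cyp7b1 and Cyp2j13.

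The main test called 8 P450 genes, which moved in both directions. Lower in knockout libraries were Cyp2j5 and Cyp2c44, both arachidonic acid epoxygenases, the hydroxylase Cyp4f14, and the xenobiotic P450 genes Cyp2d12 and Cyp2a5; higher were Cyp4f18, which degrades leukotriene B4 in leukocytes, Cyp4f16, and Cyp4v3, the mouse counterpart of the human retinal dystrophy gene CYP4V2. Of the 44 genes 42 were tested, and 8 (19.05%) had an adjusted p under 0.05 in edgeR's quasi-likelihood test (Benjamini-Hochberg over the 15171 genes tested), against 17.2% of all genes tested, so the share of P450 genes called was near the background. By direction, 5 (11.9%) were lower against 6.64% of all genes, and 3 (7.14%) were higher against 10.6%. The median log2 fold change of the 42 was -0.52 (-0.51 without Cyp2b9, whose direction the count limit fixes), beside 0.02 over all genes tested. In whole kidney, fewer cells that make a transcript and less transcript per cell cannot be told apart.

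Cyp17a1, Cyp2b23 and Cyp2b9 met the count limit through the controls alone, so a lower knockout value is built into their choice. Of the 41 other genes, the 3 knockout libraries lay below every control for 10 (24.4%, near the 22.2% of all genes tested) and above every control for 6 (14.6%, against 23.8%). Cyp2b23, with 11, 11 and 10 counts in the controls and 7, 2 and 4 in the knockout libraries, lay just inside the limit, and Cyp2c68, with 3, 4 and 9 against 14, 22 and 0, just outside it. Cyp17a1 and Cyp2b23 were too low for the filter of the test.

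None of the 8 calls was left without control 2: their adjusted p ran from 0.118 to 0.134 (edgeR), with unadjusted p of 0.000362 to 0.0208 and the same direction for each. Across all 15565 genes tested without control 2 the calls came to 0%, so the loss was not particular to these genes. At an unadjusted p under 0.05 without control 2, 11 of the 41 P450 genes whose direction the count limit left free were lower, beside 12.4% of all genes, and 4 were higher, beside 15% of all genes. Cyp2j13, among these 4, reached 10 counts in the knockout libraries alone once control 2 was out, so its direction was not free here. DESeq2, the tool of the study, called 12 P450 genes without control 2, including all 8, and 13.7% of all genes, and limma-voom and the newer edgeR version called 0. Leaving out any other library except knockout 1 also left 0 P450 calls.

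The CYP4 family had 12 members, all tested, of which 1 was called lower and 3 higher, beside 6.64% and 10.6% of all genes. Most of its counts came from Cyp4b1, Cyp4a14, Cyp4a10 and Cyp4a31. The 12 summed to 1468.7, 3187.6 and 1967.4 CPM in controls 1 to 3 and to 1894.9, 912.23 and 494.98 CPM in knockouts 1 to 3, so knockout 1 lay within the control range and the other 2 below it. The family median log2 fold change was -0.23, and -0.43 without control 2 and -0.57 without knockout 1.

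Cyp4a10, a lauric acid omega-hydroxylase and a PPAR-alpha target, was at 352.76, 383.48 and 423.82 CPM in the controls and at 521.26, 153.51 and 79.521 CPM in the knockout libraries. Knockout 1 was the highest of all 6 libraries and knockouts 2 and 3 the lowest. Its log2 fold change was -0.62 ± 0.63 (SE; adjusted p = 0.495, edgeR), and -0.64 ± 0.74 without control 2; without knockout 1 it was -1.74 ± 0.31 (adjusted p = 0.00857).

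Its close neighbour on chromosome 4, Cyp4a31, was at 277.23, 336.23 and 382.76 CPM in the controls and at 210.00, 67.447 and 49.490 CPM in the knockout libraries. All 3 knockout libraries lay below the controls, knockout 1 least so. The fitted log2 fold change came to -1.61 ± 0.54 (adjusted p = 0.0747, edgeR), -1.61 ± 0.62 without control 2, and -2.51 ± 0.24 without knockout 1 (adjusted p = 0.00238). Cyp4a32, the least abundant copy, was at 1.04 to 5.94 CPM in controls and at 0.589 to 1.00 CPM in knockout libraries and did not pass the test (adjusted p = 0.0567, edgeR). The coding sequence of Cyp4a10 is 97.19% identical to that of Cyp4a32 and 96.6% to that of Cyp4a31, and 87.3% of the 100-base words of Cyp4a10 and 79.9% of those of Cyp4a32 were found in no other gene, so counts of uniquely mapped reads may be shifted among the copies or lost.

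Cyp4a14, a further fatty acid omega-hydroxylase that is known to be higher in female mouse kidney, was at 597.75, 121.36 and 687.06 CPM in the controls and at 912.65, 468.51 and 168.93 CPM in the knockout libraries. Control 2 was the lowest of all libraries and knockout 1 the highest, and the groups overlapped. On the log2 scale the change was 0.14 ± 0.76 (adjusted p = 0.907, edgeR) and turned to -0.33 ± 0.65 without control 2 and to -0.56 ± 0.76 without knockout 1.

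Cyp4b1, known as higher in male mouse kidney, was at 154.88, 2256.1 and 361.57 CPM in the controls and at 147.77, 108.50 and 67.493 CPM in the knockout libraries. Control 2 held far more than any other library, yet the knockout libraries also lay below controls 1 and 3. The change came to a log2 value of -3.10 ± 0.98 (adjusted p = 0.0676, edgeR), and without control 2 it was -1.28 ± 0.46 (unadjusted p = 0.0320).

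In the CYP4F subfamily on chromosome 17, Cyp4f14, which hydroxylates leukotriene B4, was at 3.58, 3.00 and 7.26 CPM in the controls and at 1.18, 0.251 and 0.153 CPM in the knockout libraries. The groups did not overlap, and the level was low throughout. The log2 fold change was -3.06 ± 0.76, or 8.32-fold lower (adjusted p = 0.0412, edgeR), and -3.31 ± 0.85 without control 2 and -4.43 ± 0.65 without knockout 1.

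Cyp4f16 was at 13.9, 11.1 and 16.5 CPM in the controls and at 29.6, 28.1 and 32.4 CPM in the knockout libraries. The 3 knockout values lay close together and above every control, knockout 1 included. Its log2 fold change was 1.12 ± 0.19, or 2.17-fold higher (adjusted p = 0.0278, edgeR), and 0.97 ± 0.19 without control 2. Of its 100-base words 90.2% were unique, the rest shared with Cyp4f17 and Gm9705; Cyp4f17 was at 9.46 to 14.3 CPM in the controls and 10.4 to 12.9 CPM in the knockout libraries.

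Cyp4f18 was at 0.199, 0.176 and 0.780 CPM in the controls (4, 3 and 13 counts) and at 1.62, 4.92 and 3.14 CPM in the knockout libraries (33, 98 and 41 counts). It was the lowest P450 gene of the controls and rose in each knockout library, most in knockout 2. The fitted log2 fold change came to 3.06 ± 0.70 (adjusted p = 0.0362, edgeR) and 2.71 ± 0.81 without control 2. Zfp961 on the opposite strand overlaps 9.76% of its exon bases, and whether the counting used strand is not stated.

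Cyp4v3 was at 14.1, 10.9 and 14.5 CPM in the controls and at 22.6, 33.5 and 43.1 CPM in the knockout libraries. All 3 knockout libraries lay above the controls. On the log2 scale the change was 1.32 ± 0.26, or 2.505-fold higher (adjusted p = 0.0309, edgeR), and 1.20 ± 0.31 without control 2. Klkb1 overlaps 10.6% of its exon bases on the same strand.

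Beside the rises of Cyp4f18, Cyp4f16 and Cyp4v3, transcripts of immune cells were higher in the knockout libraries. Of 10 macrophage markers 9 were called higher, beside 10.6% of all genes. Their summed level was 199.06 to 227.83 CPM in controls and 639.78 to 2268.6 CPM in knockout libraries, highest in knockout 2. Among the knockout libraries Cyp4f18 was likewise highest in knockout 2, whereas Cyp4v3 was highest in knockout 3 and Cyp4f16 lowest in knockout 2. Of 7 B and T cell markers 3 were called higher, beside the same share of all genes. Their sums were 5.29 to 8.64 CPM in controls and 16.2 to 57.3 CPM in knockout libraries, again highest in knockout 2. None of the macrophage, B cell and T cell calls was left without control 2, as for all genes. The defining neutrophil markers Ly6g, Mpo, Elane, Camp and Ngp were at 0 to 0.703 CPM in every library. S100a8, S100a9, Csf3r and Cxcr2, also detected, had log2 fold changes of 1.77, 1.49, 1.57 and -0.33 that did not pass the test. The 10 neutrophil markers summed to 7.36 to 13.7 CPM in controls and 9.62 to 35.2 CPM in knockout libraries. Of the 4 tested 0 were called and 1 had an unadjusted p under 0.05 in edgeR, beside 38.6% of all genes (6 were too low to test). The part of these cells in the 3 rises was not tested.

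Of the remaining CYP4 genes, Cyp4f13 lay below the controls in all knockout libraries with a log2 fold change of -0.51 ± 0.17 (adjusted p = 0.0751, edgeR). Cyp4f15 was at 6.47 CPM in knockout 2 and had 0 counts in knockout 3, which allows up to 0.230 CPM (3 counts, counting error only), against 0.660 to 2.12 CPM in the controls.

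**Figure D2:**
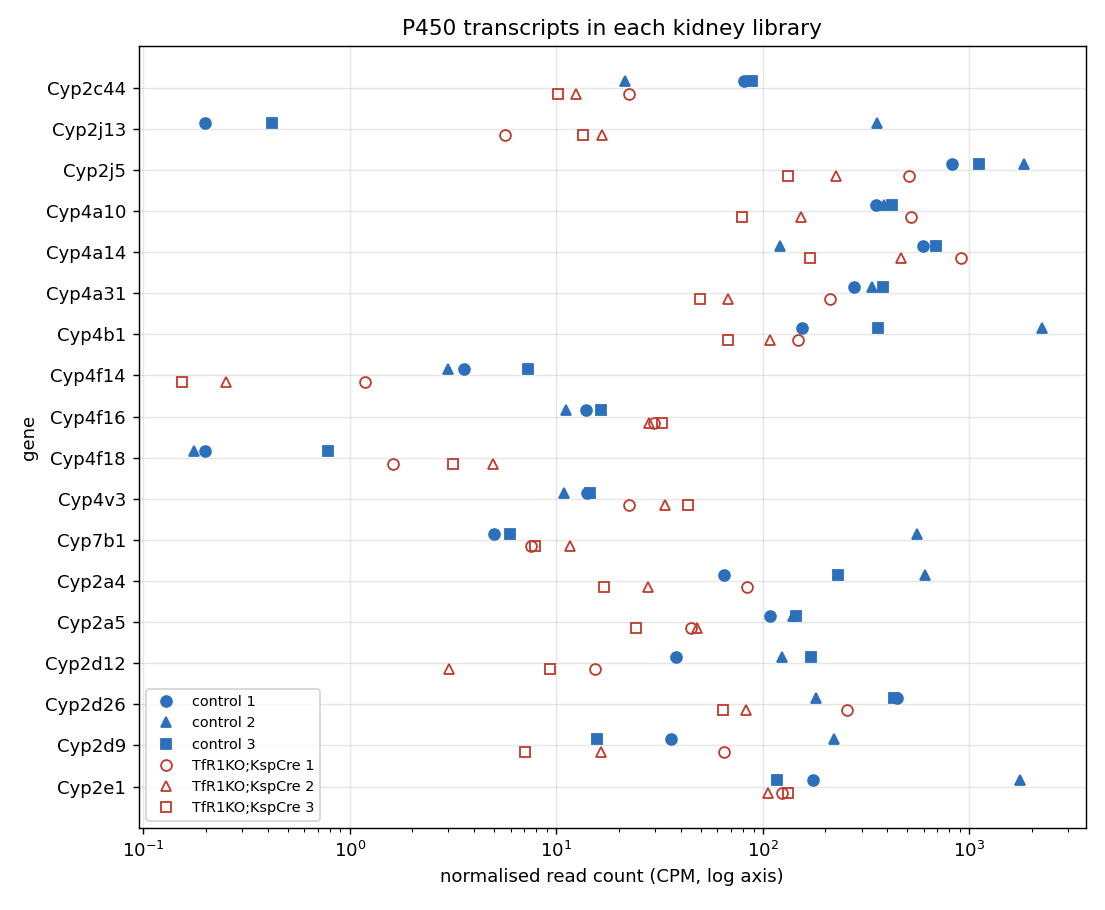
Normalised read count (CPM, log axis) of 18 P450 genes in each library, with filled blue symbols for the 3 controls and open red symbols for the 3 knockout libraries; circles, triangles and squares are replicates 1, 2 and 3. Cyp4f16 and Cyp4v3 lie higher and Cyp2j5 and Cyp2a5 lower in every knockout library, while control 2 alone sits far right for Cyp2e1, Cyp4b1, Cyp7b1 and Cyp2j13.

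The epoxygenases of the CYP2C and CYP2J subfamilies turn arachidonic acid into epoxyeicosatrienoic acids, which act on vessels and on sodium transport. Of the 22 genes of the name pattern 7 were members, all tested, and each had a negative fitted fold change over the 6 libraries, 2 of them called lower, beside 6.64% of all genes. The median log2 fold change of the 7 was -1.90 with all libraries and -0.75 without control 2, where Cyp2j13 turned positive, and -2.50 without knockout 1.

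Cyp2j5 was at 827.46, 1839.5 and 1112.2 CPM in the controls and at 509.33, 226.83 and 132.84 CPM in the knockout libraries. Its mean level per kb was the highest of the 44 genes in the controls, though Cyp4b1 and Cyp2e1 exceeded it in control 2, and every knockout library lay below every control. The change came to a log2 value of -2.12 ± 0.56, or 4.35-fold lower (adjusted p = 0.0451, edgeR), and -1.76 ± 0.56 without control 2 (unadjusted p = 0.0208). It was -2.82 ± 0.45 without knockout 1 (adjusted p = 0.00638, edgeR).

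Cyp2c44 was at 81.2, 21.4 and 88.3 CPM in the controls and at 22.5, 12.4 and 10.2 CPM in the knockout libraries. Control 2 lay below knockout 1, so the groups overlapped although the gene was called. The log2 fold change was -2.08 ± 0.56 (adjusted p = 0.0477, edgeR) and -2.50 ± 0.35 without control 2 (unadjusted p = 0.000362). With library size alone in place of TMM, and with limma-voom, its adjusted p was over 0.05.

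Cyp2j13, known as higher in male kidney, was at 0.199, 355.92 and 0.420 CPM in the controls and at 5.64, 16.6 and 13.4 CPM in the knockout libraries. Control 2 was 1149.5 times the mean of controls 1 and 3, while the 3 knockout libraries lay between. Its log2 fold change was -3.32 ± 2.16 (adjusted p = 0.2905, edgeR) with all libraries and 5.24 ± 0.72 without control 2 (unadjusted p = 0.000351; adjusted p = 0.118). The 2 remaining controls held 4 and 7 counts, and the knockout libraries 115, 330 and 175.

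Cyp2j11 was at 192.60 to 252.66 CPM in controls and at 20.3 to 113.42 CPM in knockout libraries (log2 fold change -1.90 ± 0.59; adjusted p = 0.0647, edgeR), and it passed the test without knockout 1 (adjusted p = 0.00290). Cyp2j6 differed little, at 73.0 to 78.1 CPM in controls and 54.6 to 68.9 CPM in knockout libraries. Cyp2j9 and Cyp2c69 overlapped between the groups, and only 66.4% of the 100-base words of Cyp2c69 were unique.

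The P450 genes of the CYP1, CYP2 and CYP3 families that act mainly on foreign compounds had 15 members of 35 genes of the pattern, and of the 14 tested 2 were called lower and 0 higher, beside 6.64% and 10.6% of all genes. Without Cyp2b9, 6 of 13 had an unadjusted p under 0.05 (edgeR), beside 38.6% of all genes. The median log2 fold change of the 13 was -0.53 with all libraries and -0.29 without control 2.

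Cyp2d12 was at 37.9, 123.48 and 170.07 CPM in the controls and at 15.4, 3.01 and 9.35 CPM in the knockout libraries. All knockout libraries lay below the lowest control, and the controls spread widely. The fitted log2 fold change came to -3.58 ± 0.74, or 11.9-fold lower (adjusted p = 0.0324, edgeR), and -3.51 ± 0.84 without control 2 and -4.20 ± 0.83 without knockout 1.

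Cyp2a5, the coumarin hydroxylase, was at 107.82, 139.58 and 144.80 CPM in the controls and at 44.9, 47.8 and 24.2 CPM in the knockout libraries. The groups did not overlap, and knockout 3 lay lowest. On the log2 scale the change was -1.74 ± 0.28, or 3.35-fold lower (adjusted p = 0.0277, edgeR), and -1.71 ± 0.32 without control 2 (unadjusted p = 0.00184).

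Cyp2a4, a testosterone 15-alpha-hydroxylase, was at 64.6, 607.35 and 231.90 CPM in the controls and at 83.9, 27.6 and 16.9 CPM in the knockout libraries. Control 2 was 4.10 times the mean of controls 1 and 3, and knockout 1 lay above control 1. The change came to a log2 value of -2.81 ± 0.92 (adjusted p = 0.0711, edgeR), -1.81 ± 0.79 without control 2 and -3.76 ± 0.97 without knockout 1 (adjusted p = 0.0281).

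Cyp2a4 (mm9, chr7:27092209-27100107, plus strand) and Cyp2a5 (chr7:27620324-27628567, plus strand) have coding sequences that differ at 23 of 1485 bases, an identity of 98.45%, and share a run of 216 identical bases, longer than a read of the study (100 bases). Reads from such runs cannot be placed on a single gene, and 88.7% and 90.4% of the 100-base words of the genes were unique. The stretch of coding bases 570 to 669, in which the genes differ most, is shown because only reads over such positions separate them, with the 5 differing bases in capitals.
Cyp2a4: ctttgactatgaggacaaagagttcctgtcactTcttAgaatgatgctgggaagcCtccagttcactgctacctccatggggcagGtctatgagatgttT
Cyp2a5: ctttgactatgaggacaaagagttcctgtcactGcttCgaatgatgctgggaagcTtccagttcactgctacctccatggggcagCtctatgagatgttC
Counted from 1 at the first coding base, the differences from Cyp2a4 to Cyp2a5 are T603G, A607C, C625T, G655C and T669C. Control 2 was high for Cyp2a4 alone of the pair, since Cyp2a5 there was 1.11 times the mean of controls 1 and 3.

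Cyp2d26 was at 443.41, 179.72 and 432.95 CPM in the controls and at 255.79, 83.1 and 64.1 CPM in the knockout libraries. Control 2 fell below knockout 1, and the other knockout libraries lay lowest. The log2 fold change was -1.39 ± 0.60 (adjusted p = 0.134, edgeR), -1.72 ± 0.59 without control 2 and -2.27 ± 0.43 without knockout 1 (adjusted p = 0.0112).

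Cyp2d9, known as male-biased, was at 35.9, 221.28 and 15.7 CPM in the controls and at 64.9, 16.4 and 7.05 CPM in the knockout libraries. Without control 2, the groups lay across each other. Its log2 fold change was -1.62 ± 1.13 (adjusted p = 0.321, edgeR) and turned to 0.18 ± 0.90 without control 2; without knockout 1 it was -2.95 ± 1.20 (adjusted p = 0.105).

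Cyp2e1 was at 175.19, 1752.5 and 117.48 CPM in the controls and at 123.53, 105.64 and 131.92 CPM in the knockout libraries. Control 2 was 11.98 times the mean of controls 1 and 3, and the other 5 libraries were within a narrow range. The fitted log2 fold change came to -2.50 ± 1.00 (adjusted p = 0.116, edgeR) and -0.29 ± 0.23 without control 2 (unadjusted p = 0.246).

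Cyp1b1, a P450 of stromal and vascular cells, was at 25.2 to 51.0 CPM in controls and at 59.1, 273.05 and 49.0 CPM in the knockout libraries, so that knockout 2 alone stood high. In that library the 5 urothelium markers summed to 814.23 CPM against 6.89 to 62.8 CPM in the other 5 libraries. The 8 markers of fibroblasts and pericytes summed to 3797.5 CPM there. Their sums were 300.82 to 653.27 CPM in controls and 982.49 and 3193.6 CPM in knockouts 1 and 3. Cyp2f2 was likewise highest in knockout 2, at 22.1 CPM against 3.98 to 10.1 CPM elsewhere. The part of these cells in the 2 values was not tested. Cyp3a13 was low but above the controls in each knockout library, at 0.705 to 1.38 CPM in controls and 2.01 to 5.82 CPM in knockout libraries (log2 fold change 1.799 ± 0.54; adjusted p = 0.0598, edgeR). Cyp1a1, the main target of the aryl hydrocarbon receptor, was at 1.49 to 3.06 CPM in controls and 1.18 to 1.76 CPM in knockout libraries, with overlapping groups.

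Among the 4 sterol and bile acid genes 0 were called, beside 17.2% of all genes. At an unadjusted p under 0.05 (edgeR) there was 1, beside 38.6% of all genes. Cyp7b1, the oxysterol 7-alpha-hydroxylase, known as male-biased, was at 4.98, 559.21 and 5.94 CPM in the controls and at 7.51, 11.6 and 7.89 CPM in the knockout libraries. Control 2 was 102.43 times the mean of controls 1 and 3, and all knockout libraries lay above those 2 controls. On the log2 scale the change was -4.39 ± 1.7996 (adjusted p = 0.121, edgeR) and turned to 0.71 ± 0.33 without control 2 (unadjusted p = 0.0749). Cyp27a1, the mitochondrial sterol 27-hydroxylase, was at 39.1 to 66.5 CPM in controls and 29.96 to 49.98 CPM in knockout libraries. Cyp39a1 was at 13.7 to 19.2 CPM in controls and 20.6 to 27.9 CPM in knockout libraries, with no overlap but an adjusted p of 0.189 (edgeR).

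The steroid hormone class had 1 member, Cyp17a1, with 14, 10 and 18 counts in the controls and 3, 4 and 3 in the knockout libraries. Of 10 adrenal cortex markers, the defining Nr5a1 and Hsd3b1 were at 0 to 0.240 CPM in every library, and the list, which holds genes that the kidney also expresses such as Scarb1 and Fdxr, summed to 66.1 to 77.7 CPM in controls and 80.6 to 103.5 CPM in knockout libraries. Star was at 7.17 to 8.76 CPM in controls and 7.17 to 13.2 CPM in knockout libraries, and Akr1b7 at 4.64 to 6.66 and 6.47 to 24.5 CPM. Neither was called. Mrap was at 2.47 to 5.12 and 0.344 to 4.52 CPM. Mc2r had 10, 5 and 1 counts in the controls and 11, 12 and 5 in the knockout libraries. Of the 5 genes of the list tested, Scarb1 alone was called (higher, log2 fold change 0.79, adjusted p = 0.0305, edgeR), beside 10.6% of all genes. The part of such cells in the Cyp17a1 counts was not tested. Among the 5 retinoid, vitamin D and other genes 0 were called, beside 17.2% of all genes. Of these 5 genes 0 had an unadjusted p under 0.05 (edgeR), beside 38.6% of all genes. Cyp26a1, which degrades retinoic acid, was at 0.294 to 1.62 CPM in controls and at 0.883, 1.51 and 8.35 CPM in the knockout libraries, high in knockout 3 alone. Cyp20a1, an orphan P450, was at 27.6 to 36.6 CPM in controls and 38.2 to 43.7 CPM in knockout libraries.

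Control 2 was over 2-fold above each of the other 5 libraries for 6 of the 44 genes (13.6%), Cyp2j13, Cyp7b1, Cyp2e1, Cyp4b1, Cyp2d9 and Cyp2a4, against 0.745% of all genes tested. The first 5 are the genes listed as male-biased, a list chosen with earlier results of these data known. Sex bias of the other members was not tested. It was over 2-fold below every other library for Cyp26a1 alone, against 1.36% of all genes. Summed over the 44 genes, control 2 had 9607.3 CPM, controls 1 and 3 had 3801.7 and 4840.7 CPM, and knockouts 1 to 3 had 3518.1, 2097.7 and 1286.6 CPM. Without Cyp2e1, Cyp4b1, Cyp2j5, Cyp4a14 and Cyp7b1 the sum was 2041.4, 3078.6 and 2556.4 CPM in controls 1 to 3 and 1817.3, 1176.6 and 777.52 CPM in knockouts 1 to 3. It does not show whether control 2 was high beyond the 6 genes above. Cyp4a14, taken out of this sum, was at 121.36 CPM in control 2, its lowest library. Cyp2a4, Cyp2j13 and Cyp2d9, still in the sum, were at 607.35, 355.92 and 221.28 CPM in control 2. Slc7a13 and Acsm3, of the S3 segment of the proximal tubule, were likewise at 879.52 and 679.28 CPM in control 2 and at 0.843 to 18.1 CPM in the other libraries. The other 10 of the 12 S3 markers were not over 2-fold above there, and the list sum was 14634 CPM in control 2 against 12372 and 11942 CPM in controls 1 and 3. Sex, animal and library cannot be told apart in 1 library.

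**Figure D3:**
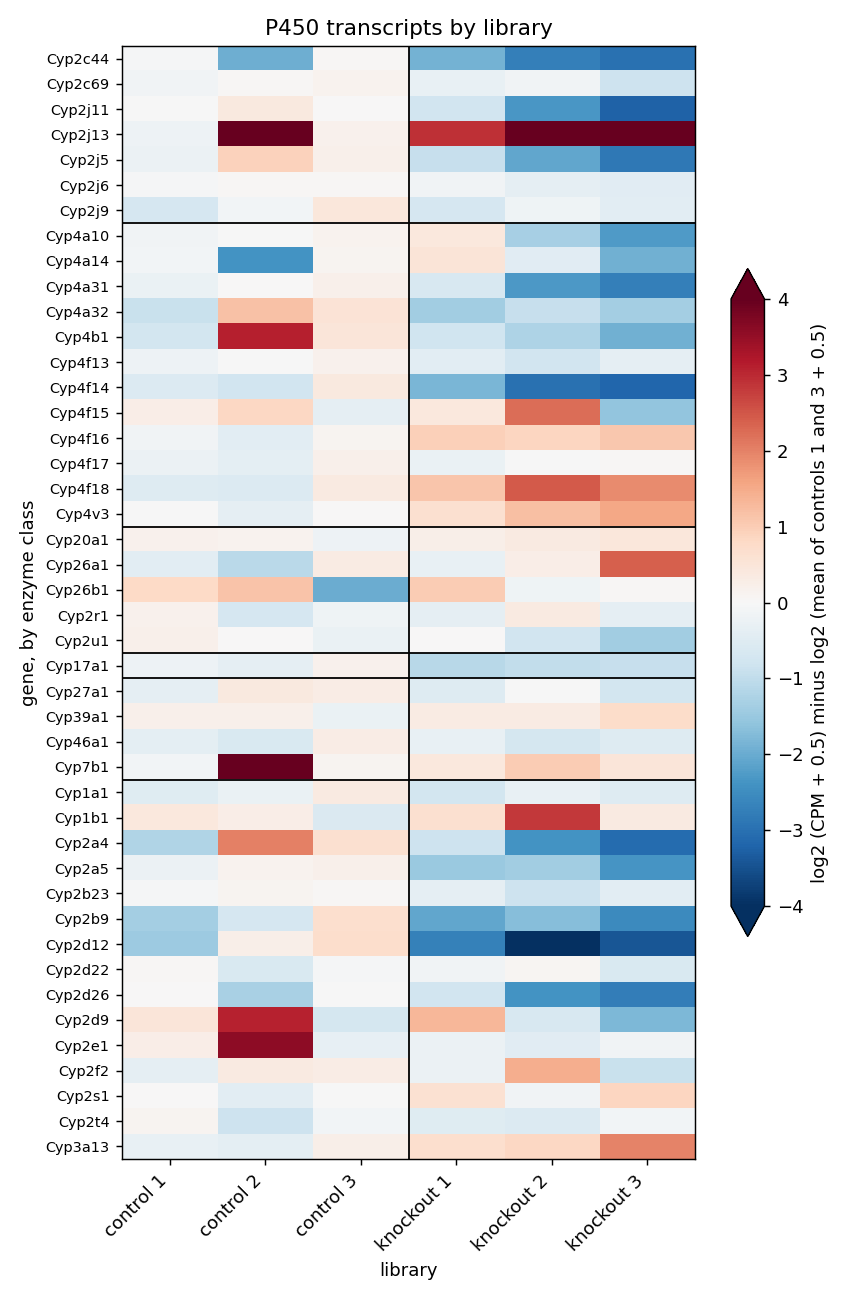
Level of each of the 44 P450 genes in each library, as the log2 difference from the mean of controls 1 and 3 after adding 0.5 CPM, with genes in rows by enzyme class (lines divide classes) and libraries in columns; colours end at 4 in either direction. Control 2 is dark red for Cyp2j13 and Cyp7b1, and knockouts 2 and 3 are blue for Cyp2j5, Cyp2j11, Cyp4a31, Cyp2d12 and Cyp2d26 with knockout 1 paler.

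**Figure D4:**
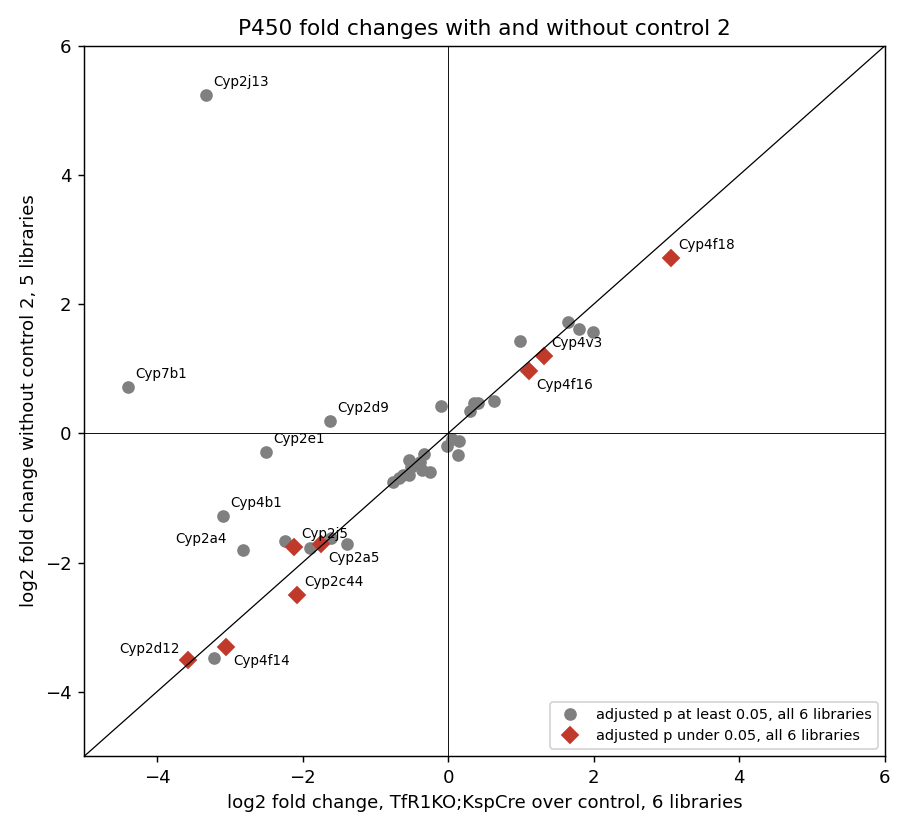
Log2 fold change of 42 P450 genes, TfR1KO;KspCre over control, with all 6 libraries (x axis) and without control 2 (y axis); red diamonds had an adjusted p under 0.05 with all 6 and the line marks equal values. The 8 diamonds lie near the line, whereas Cyp2j13 moves from -3.32 to 5.24 and Cyp7b1 from -4.39 to 0.71.

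Without knockout 1, edgeR called 11 of the 41 P450 genes whose direction the count limit left free lower, against 16.4% of all 15494 genes tested, and 4 higher, against 18%. All 8 calls of the main test were among these. The others were Cyp2j11, Cyp2j6, Cyp4a10, Cyp4a31, Cyp2a4 and Cyp2d26, all lower, and Cyp3a13, higher. Cyp17a1, lower by its choice, was also called. Cyp4f14, among the 11, reached 10 counts in the controls alone once knockout 1 was out, so its direction was not free here.

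Marker transcripts of the proximal tubule were lower in the knockout libraries. Of 12 markers of its S1 and S2 segments 9 were called lower, beside 6.64% of all genes, and their sum was 14540 to 21102 CPM in controls and 7774.3, 3260.8 and 2501.0 CPM in knockouts 1 to 3. None of these calls was left without control 2, as for all genes. Of 12 S3 markers 6 were called lower with all 6 libraries, with sums of 11942 to 14634 CPM in controls and 6615.9, 1914.2 and 1564.1 CPM in knockout libraries. Knockout 1 was thus between the controls and the other knockout libraries, as for Cyp2j5. The 7 markers of the thick ascending limb, a site of the Cre, summed to 12000, 11768 and 5492.3 CPM in controls 1 to 3 and to 7067.0, 947.01 and 1263.9 CPM in knockouts 1 to 3. Of these 7 markers 0 were called, beside 17.2% of all genes, and 2 had an unadjusted p under 0.05 (edgeR), beside 38.6%. The part of the proximal tubule's share of the tissue in the P450 values was not tested.

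The redox partners of P450 enzymes were followed as a list of 10 genes, all tested, of which 3 were called lower and 0 higher, beside 6.64% and 10.6% of all genes. Por, the reductase of the microsomal enzymes, was at 300.32, 376.67 and 250.63 CPM in the controls and at 177.61, 113.67 and 102.96 CPM in the knockout libraries, with no overlap. Its log2 fold change was -1.23 ± 0.27 (adjusted p = 0.0332, edgeR) and -1.08 without control 2. Cyb5a, cytochrome b5, fell by 1.37 on the log2 scale (adjusted p = 0.0466, edgeR) and Fdx1, the ferredoxin of mitochondrial P450 enzymes, by 1.33 (adjusted p = 0.0305, edgeR). Cyb5r3 had a log2 fold change of 0.73 ± 0.22 (adjusted p = 0.0625, edgeR).

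Among 4 epoxide hydrolases, which open the epoxides that P450 enzymes make, 3 were tested. Ephx1, the microsomal form, was called higher, at 99.2 to 139.66 CPM in controls and 185.73 to 236.06 CPM in knockout libraries (log2 fold change 0.86 ± 0.20; adjusted p = 0.0356, edgeR). Ephx2, the soluble form that hydrolyses arachidonic acid epoxides, was at 213.79, 475.29 and 284.91 CPM in the controls and at 212.46, 99.6 and 78.3 CPM in the knockout libraries. Its log2 fold change was -1.32 ± 0.45 (adjusted p = 0.0805, edgeR), and -0.95 without control 2 (unadjusted p = 0.0759, edgeR).

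Of 12 transcription regulators of P450 genes described here 11 were tested, and 6 were called lower and 0 higher, beside the same shares of all genes. Hnf4a, a factor of the proximal tubule and liver, had a log2 fold change of -1.59 ± 0.38 (adjusted p = 0.0380, edgeR). Ppara, the receptor that drives Cyp4a genes, was at 132.76 to 204.71 CPM in controls and at 71.6, 53.2 and 29.3 CPM in knockouts 1 to 3 (log2 fold change -1.66 ± 0.34; adjusted p = 0.0317, edgeR). Nr1h3, Nr1h4, Ppargc1a and Ahrr, the repressor of the aryl hydrocarbon receptor, were the other 4. Ahr itself was at 14.4 to 20.4 CPM in controls and 28.1 to 73.8 CPM in knockout libraries (adjusted p = 0.0660, edgeR). None of these list genes passed without control 2, where edgeR called 0 genes in all.

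The 48 genes of the pattern below the count limit included 6 at 0 in every library. In sum they had 186 counts in control 3, beside 50 and 48 in controls 1 and 2 and 100, 157 and 63 in knockouts 1 to 3. For 12 of them, control 3 had at least 3 counts and more than the other 5 libraries together, among them Cyp2c29 with 15 counts, Cyp3a11 with 27, Cyp2c37 and Cyp2c70 with 12 each and Cyp2a12 with 9, all known as liver P450 genes. In the same library Alb was at 74.9 CPM against 2.46 to 8.01 CPM in the others, and Ahsg at 4.20 against 0 to 0.689 CPM. Control 3 was the highest library for 5 of the 10 liver markers, and the list sum was 534.46 CPM there against 211.90 to 716.78 CPM in the others, highest in control 2 through Apob at 510.67 CPM; Serpina1a was lowest in control 3. The part of liver RNA in these counts was not tested. Cyp4f39 had 66 counts in knockout 2 and 2 to 7 elsewhere.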

How the data were processed

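RNA from 3 control and 3 TfR1KO;KspCre kidneys was sequenced from poly-A libraries. The authors deposited raw counts per gene, with no normalization: bases were called with CASAVA 1.8.2, reads trimmed with Trimmomatic, aligned to mm9 with TopHat2 2.0.11, and uniquely mapped reads counted with HTSeq. The annotation and strand setting of the counting are not given in the sources used here. Counts were tested as deposited with edgeR 4.0.16 (filterByExpr, TMM, legacy quasi-likelihood fit, no covariate, limma 3.58.1, R 4.3.3) across 15171 genes with Benjamini-Hochberg adjustment, and calls have an adjusted p under 0.05. The SE is the log2 fold change divided by the square root of F. Values per kb use the union of exons in GENCODE M1 (mm9), to which all 44 symbols matched, and sequences come from the same annotation. The scripts were tested on simulated data.

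The P450 genes and all lists were chosen with earlier results of these data known; 1 gene of the list of regulators is not reported here. Genes described with values in every library by rule are the 8 with the highest control mean per kb, called genes with the 6 largest rises and falls, up to 6 genes that turn sign or shift by over 0.58 (log2) without control 2 or knockout 1, and 6 genes listed as sex-biased; these came to 18 genes. Others that are named were chosen after their values were seen. Alternatives were DESeq2 1.42.0 size factors and Wald test, library size alone, other filters, limma-voom, the newer quasi-likelihood version, a replicate block, an adjusted p under 0.1 and leaving out each library; tests without control 2 by other tools were added after seeing the data. Replicates of a group differed by more than sampling noise (chi-square of 52.9 to 125.5 per degree of freedom). The labels call the libraries biological replicates. The p-values weigh the difference between the groups against the spread within them, which includes control 2 except where it was left out.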

Additional observations from a re-analysis of the deposited data

How the results depend on the processing

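The 8 P450 calls (5 lower, 3 higher) depended on the test and on single libraries. DESeq2's Wald test called 19 (14 lower, 5 higher), beside 24.8% of all genes, and an adjusted p under 0.1 gave 16 (12 lower), beside 33.2% of all genes. Library size alone called 9 (4 lower, 5 higher), beside 3647 of the 15171 genes tested. It raised the all-gene median (log2) from 0.02 to 0.29 and moved the P450 median from -0.52 to -0.25. It also turned Cyp26b1, Cyp2d22 and Cyp2t4 from negative to positive. The 8 calls all held with DESeq2 size factors, both other filters and the newer edgeR version, and 7 of 8 held with library size alone and limma-voom. Leaving out 1 library gave 0 to 16 calls, 0 to 12 of them lower and 0 to 4 higher, with 16 without knockout 1 and 0 without any other; over all genes, edgeR then called 0 without control 1, 2 or 3, 73 without knockout 2 and 2 without knockout 3. The unadjusted p was under 0.05 for 15 to 24 P450 genes in these fits, beside 27.4% to 46.3% of all genes. Deviations from the group means had correlations of -0.13, 0.01 and 0.21 between same-numbered libraries of the groups. Differently numbered libraries were not compared, so these values cannot show whether the samples were paired. With a replicate block 0 P450 genes and 0 genes in all were called (unadjusted p under 0.05 for 17 P450 genes and 35.8% of all genes), with 0 lower and 0 higher. Without control 2, DESeq2 called 12 P450 genes, beside 13.7% of all genes, and limma-voom 0.

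Of the 42 genes, 7 turned sign without control 2: Cyp26b1 was then at 0.42, Cyp2r1 at -0.12, Cyp4f17 at -0.083, Cyp2d9 at 0.18, Cyp2j13 at 5.24, Cyp4a14 at -0.33 and Cyp7b1 at 0.71; without knockout 1, Cyp4a14 was at -0.56; and Cyp2j13 was at 1.78 with limma-voom and 1.82 with the replicate block. Over single left-out libraries, Cyp2d9 ran from -2.95 to 0.18, Cyp2j13 from -3.92 to 5.24, Cyp4a14 from -0.56 to 0.56 and Cyp7b1 from -4.98 to 0.71. The cause of the other changes was not tested. Depth limits Cyp4f18, Cyp4f14, Cyp2b23 and Cyp17a1, which rest on few counts.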
